A study of Mus musculus with 4 samples.

Results

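Collagens and other structural or matrix-modifying genes were examined in the hearts of 2 mouse models of altered cardiac myosin binding protein C and their controls. The set was every gene whose symbol is Col, digits, a and digits (44 collagen chain genes) together with 13 others: Fn1, Sparc, Bgn, Dcn, Lum, Postn, Fstl1, Fbn1, Lox, Timp1, Timp3, Mmp2 and Thbs4. It held 57 of the 25044 genes in the count files. RNA was taken from whole hearts at 12 weeks of age, and each of the 4 libraries came from 3 hearts combined. In the hypertrophic (HCM) pair, dC10mut denotes hearts of cMyBP-CΔC10mut mice, whose transgene is labelled a 25-bp MYBPC3 variant, and NTG denotes nontransgenic hearts (strain label of both, C57BL/6). In the dilated (DCM) pair, tt denotes hearts of cMyBP-C(t/t) mice, a model known for a truncated form of the protein, and control denotes the hearts of mice labelled as its controls (strain label of both, FvB/N). The transgene's promoter and the sex of the mice are not given in the sources used here.

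Most of the cardiac extracellular matrix is made by resident fibroblasts, with basement membrane components also coming from muscle, endothelial and mural cells. Fibrillar collagens I and III form the tensile network between muscle fibres, collagen IV and laminins form the sheet around each cell, and small proteoglycans and glycoproteins set fibril spacing and cell attachment. In failing or hypertrophied hearts this matrix is known to be remodelled and often to expand as fibrosis.

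Total counts were between 170543 and 187365 per library, so that 1 count equalled between 5.19 and 6.23 CPM, the unit in which a library's scaled total is 1000000. A count of 0 allows up to 3 counts as a one-sided 95% limit, which equals between 15.6 and 18.7 CPM; the plotted bars are two-sided and reach higher. With 1 library per group no difference has a replicate check, no p-value is given for the conditions, and every 95% interval covers counting error only. In such bulk RNA, fewer cells of a type and less RNA per cell cannot be told apart. The female-specific transcript Xist and its antisense partner Tsix held 155 counts together in dC10mut (8 and 147) and 173 in tt (14 and 159), with 0 in NTG and 0 in control. Sex and genotype therefore cannot be told apart in either pair. Of the cardiomyocyte markers, the ventricular light chain Myl2 held between 2405 and 3520 counts per library and the actin Actc1 between 906 and 1403. Myh6, Tnnt2 and Myl3, which are equally defining, were listed at 0 or 1.

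The set held 745 counts over the 4 libraries, or 0.103% of all counts, which is far too few to follow most genes singly. A count in any library was found for 30 of the 57 genes, and 15 reached 10 counts in total. Those 15 carried 91.7% of the set's counts, and Col4a2, Timp3 and Col3a1 alone carried 41.9%. The other 15 genes with a count held between 1 and 9, led by Col4a4 and Col5a2 (9 each), Col14a1 (8) and Col4a3 (7).

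Whether a matrix gene was counted went with the number of transcript records it has in the files, which count reads per RefSeq transcript. Of the 36 genes with a single record, 27 held a count. Of the 21 with more than 1 record, 3 did: Dcn with 10 counts, Col6a2 with 3 and Col6a6 with 2. Together the 21 genes held 15 of the 745 counts. Over all genes, 45.4% of those with a single record and 19.8% of those with several held a count, and the latter held 14.3% of all counts. How reads shared by a gene's records were treated is not given in the sources used here. Also listed at 0 were 18 matrix genes with several records, some of them known as abundant products of heart fibroblasts and vessels. Among the 18 were Sparc (2 records), a collagen-binding protein, Fn1 (7), which encodes fibronectin, and Postn (5), the activated-fibroblast protein periostin. Col4a1 (2), Lox (3), the collagen crosslinking oxidase, and Timp1 (3), a metalloproteinase inhibitor, were further ones. Their levels, and any change in them, cannot be read from these files. The 9 genes with a single record at 0 were Col6a4, Col6a5, Col7a1, Col8a2, Col11a1, Col12a1, Col19a1, Col22a1 and Col28a1.

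**Figure D1:**
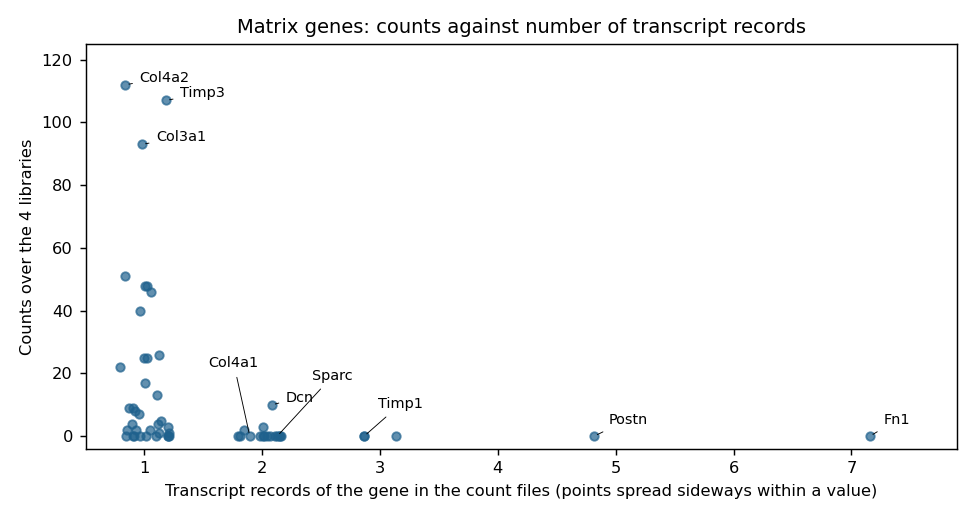
Counts summed over the 4 libraries (vertical axis) against the number of transcript records of each of the 57 matrix genes (horizontal axis); each point is 1 gene. Genes with several records lie at 0 apart from Dcn, Col6a2 and Col6a6, while Col4a2 (112 counts), Timp3 (107) and Col3a1 (93) have a single record.

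Per length, Timp3 was the most counted of the 15 genes, at 22.7 counts per kb of transcript over the 4 libraries (95% Poisson interval 18.6 to 27.4). Bgn (19.8), Lum (18.8), Col4a2 (17.4), Col3a1 (16.7) and Fstl1 (13.5) followed. Fbn1 (1.73) and Col5a1 (1.55) were the lowest. The interval of each gene overlapped that of its neighbour in this order, so the order of adjacent genes was not resolved. Col1a1 and Col1a2, whose products join in the same type I collagen molecule, had like levels of 4.22 and 4.11 counts per kb, both below the 16.7 of Col3a1. Levels of genes with more than 1 record, here Dcn, are not comparable with the rest.

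Over the whole set, matrix counts were slightly lower in dC10mut than in NTG, and the difference between tt and control was of like size but within counting error. The pooled counts went from 189 in NTG to 173 in dC10mut, and from 205 in control to 178 in tt, or from 1178 to 924 CPM and from 1127 to 924 CPM. The log2 ratio of dC10mut over NTG was -0.35 (95% interval -0.66 to -0.05), and that of tt over control was -0.29 (-0.58 to 0.01). Between the control libraries it was -0.06 (-0.36 to 0.23). Scaling by library totals alone gave -0.26 (-0.57 to 0.04) in the HCM pair, so that the interval then included equality. Leaving out Col4a2, the most counted member, gave -0.26 (-0.60 to 0.07) in the HCM pair and -0.49 (-0.82 to -0.17) in the DCM pair.

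The whole-set value joined collagens and other matrix genes that differed in opposite directions in the HCM pair. Collagen chains alone went from 136 counts in NTG to 85 in dC10mut, and from 113 in control to 104 in tt. Their log2 ratio was -0.90 (-1.31 to -0.50) in the HCM pair and -0.20 (-0.60 to 0.19) in the DCM pair, with -0.45 (-0.82 to -0.08) between the controls. The 13 other genes went from 53 to 88 counts in the HCM pair (log2 ratio 0.50, 0.00 to 1.03) and from 92 to 74 in the DCM pair (-0.39, -0.86 to 0.06), with 0.61 (0.11 to 1.13) between the controls. Cardiomyocyte markers (9 of 11 genes with a count) had a pooled log2 ratio of 0.28 (0.22 to 0.33) in dC10mut over NTG. In size this was below the collagen value of that pair. Its genes were not uniform there, with a median of -0.12. Myl2 (52.5% of the list's counts), Actc1 and Tnni3 were higher, whereas Actn2 was lower (-0.40, -0.65 to -0.16). In tt over control the pooled value was -0.14 (-0.20 to -0.09), which lies inside the collagen interval. The part of cardiomyocyte markers in the collagen values was not tested.

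A gene was called higher or lower when its log2 ratio was at least 1 in size and the counting interval excluded equality. In the HCM pair 3 of the 27 members with a count were called, against 4.33% of all genes with a count there: Fstl1 was higher (1.81% of all genes were) and Col8a1 and Col4a4 were lower (2.53%). In the DCM pair 2 of 28 were called, against 4.28% of all genes: Col4a2 was higher (2.7% of all genes were) and Col1a2 lower (1.58%). Between the control libraries 2 of 28 were called, against 3.09%: Fstl1 was higher in control (1.4% of all genes were) and Col4a2 lower (1.69%). Most of those genes have too few counts to be called. Among genes with 10 or more counts in the comparison, 2 of 10 members were called in the HCM pair against 9.94% of genes (4.26% higher and 5.69% lower). The numbers were 2 of 13 in the DCM pair, against 9.55% (6.04% higher and 3.51% lower), and 2 of 13 between the controls, against 6.62% (3.17% higher and 3.45% lower). Each of these pairs of members is 1 higher and 1 lower, and with so few members the shares are not set apart from the background. The median log2 ratio of these members was -0.54 in dC10mut over NTG, where the median of all such genes was -0.001, and -0.35 in tt over control, where it was -0.06. Between the controls the members' median was 0.28 and that of all genes -0.02.

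The fibrillar collagens, which build the rope-like fibres of types I, III and V, were lower as a pool in both mutant libraries than in their controls. Their pooled counts were 50 in NTG and 29 in dC10mut, and 55 in control and 29 in tt. In CPM the control libraries held 312 and 302 and the mutant libraries 155 and 151. The closeness of the control libraries was that of the pool, whose genes differed in opposite directions between them. Col1a1, Col1a2 and Col3a1 together held 38 counts in NTG and 52 in control, whereas Col5a1 held 6 and 2 and Col5a2 5 and 1. The group was 1.99-fold lower in dC10mut than in NTG (interval of the log2 ratio -1.72 to -0.32) and 1.99-fold lower in tt than in control (-1.71 to -0.33), while the log2 ratio between the control libraries was -0.04 (-0.62 to 0.54). Fibroblast markers did not share this order, with 21 counts in NTG, 50 in dC10mut, and then 40 (control) and 29 (tt). Without Col3a1, their most counted gene, the fibrillar collagens held 27, 11, 21 and 11 pooled counts in the order NTG, dC10mut, control and tt. The log2 ratio was then -1.47 (-2.68 to -0.46) in the HCM pair and -0.98 (-2.21 to 0.10) in the DCM pair. Between the controls it was -0.53 (-1.44 to 0.33).

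Col3a1 (chromosome 1, 45311538 to 45349706, GRCm38), the type III chain, went from 23 counts in NTG to 18 in dC10mut, and from 34 in control to 18 in tt. Both mutant libraries were below both control libraries, as in 20.4% of all genes with 10 or more counts. The difference was under 2-fold in each pair (log2 ratio -0.56, interval -1.55 to 0.38, and -0.98, interval -1.91 to -0.14). Col1a2, the α2 chain of type I collagen (chromosome 6, 4504814 to 4541544), went from 7 counts in NTG to 2 in dC10mut, and from 11 in control to 2 in tt. It was 4.84-fold lower in tt (log2 ratio -2.27, -5.76 to -0.35), and its interval in the HCM pair spanned equality on 9 counts. Col1a1, the partner α1 chain, went from 8 counts in NTG to 5 in dC10mut, and from 7 in control to 5 in tt, in the same order but within counting error. Col5a1, a regulator of fibril diameter with the opposite-strand genes 2810430I11Rik and Gm13372, held 6, 3, 2 and 2 counts in that order of libraries, and Col5a2, its partner chain, 5, 1, 1 and 2. Both type V chains had their highest count in NTG, and their intervals spanned equality in each pair. Col27a1 held a single count, in NTG.

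**Figure D2:**
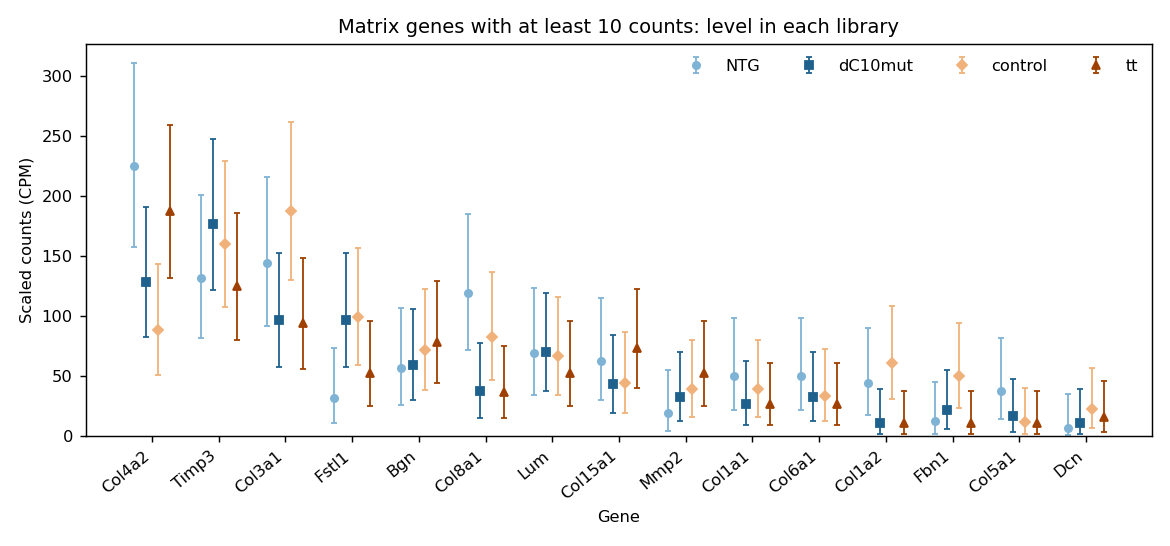
Scaled counts (CPM, vertical axis) of the 15 matrix genes with at least 10 counts in the 4 libraries; points are single libraries and bars are exact 95% Poisson intervals of the count. Col3a1, Col1a2 and Col8a1 lie lower in dC10mut and tt than in NTG and control, while Col4a2 is high in NTG and tt and Fstl1 is low in NTG.

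Col8a1, a short-chain network collagen of vessel walls and fibroblasts (chromosome 16, 57624258 to 57754737), showed the same order. It went from 19 counts in NTG to 7 in dC10mut, and from 15 in control to 7 in tt. Both mutant libraries were thus below both controls, as in 20.4% of all genes with 10 or more counts. Their counting intervals overlapped, at 71.3 to 185 CPM in NTG and 46.2 to 136 in control, against 15.0 to 77.0 in dC10mut and 14.6 to 74.9 in tt. The difference was 3.01-fold in the HCM pair (log2 ratio -1.59, -3.16 to -0.35) and 2.18-fold in the DCM pair, where the interval spanned equality (-1.13, -2.72 to 0.20). Its network-forming relative Col10a1 held 1 count in dC10mut and 2 in tt, and Col7a1, Col8a2 and Col28a1 held 0 in all libraries. Of the beaded-filament collagens of type VI, Col6a1 held 8, 6, 6 and 5 counts in NTG, dC10mut, control and tt, which is lower in the mutant libraries by less than counting error. Col6a2 and Col6a6 held at most 1 count per library.

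In all, 5 of the 15 members with 10 or more counts (Col1a1, Col1a2, Col3a1, Col6a1 and Col8a1) had lower CPM in both mutant libraries than in both control libraries. This held for 20.4% of all genes with 10 or more counts. No member (0 of 15) had higher CPM in both mutant libraries, where 17.7% of genes did. With so few members neither share is set apart from the background. The 5 names were the same with DESeq2 size factors and with library totals. The mutant libraries also differ from the controls in their Xist and Tsix counts, and the part of sex in these differences cannot be told apart.

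For 2 of these 5 genes, Col3a1 and Col8a1, the 100 bases before the RefSeq start (GRCm38.p6) are free of annotated exons. They are shown as promoter-proximal sequence, and no link between sequence and level was tested. The interval spanned equality for Col3a1 in the HCM pair and for Col8a1 in the DCM pair. The sequences are written 5′ to 3′ on the gene's strand, and capitals mark matches to textbook promoter elements searched on both strands: the CCAAT box (CCAAT), the TATA box (TATAAA) and the GC box (GGGCGG, or CCGCCC on the other strand).
Col3a1, chr1:45311438-45311537, plus strand: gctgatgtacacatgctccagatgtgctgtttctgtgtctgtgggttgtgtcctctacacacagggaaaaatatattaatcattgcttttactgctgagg
Col8a1, chr16:57754738-57754837, minus strand: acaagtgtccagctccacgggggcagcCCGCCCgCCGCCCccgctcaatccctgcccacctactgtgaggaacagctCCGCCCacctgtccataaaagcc
The Col8a1 window holds 3 GC box matches, at -73 to -68, -66 to -61 and -23 to -18 from the start, and none of the other letters. The Col3a1 window holds none of the 3 elements. Among 32851 promoters, windows of the same length held a CCAAT match in 18.9%, a TATAAA match in 5.56% and a GC box match in 24.7%.

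The basement membrane collagens differed in opposite directions in the pairs. Their pooled counts went from 53 in NTG to 34 in dC10mut, and from 30 in control to 55 in tt. They were lower in dC10mut (log2 ratio -0.85, -1.53 to -0.22) and higher in tt (0.78, 0.12 to 1.48), but the control libraries differed by as much (-0.99, -1.70 to -0.33). Col4a2, the α2 chain of the collagen IV sheet (chromosome 8, 11312805 to 11449287), made up 65.1% of these counts. It went from 36 counts in NTG to 24 in dC10mut, and from 16 in control to 36 in tt, so that NTG and tt were the high libraries and control the low one. The DCM pair differed 2.09-fold (log2 ratio 1.06, 0.20 to 2.04), the HCM pair 1.73-fold in the other direction (-0.79, -1.62 to -0.02), and the control libraries 2.50-fold (-1.32, -2.30 to -0.47). The tt library thus held the same count as NTG, the C57BL/6 control. Col4a2 lies head to head with Col4a1 and overlaps its exons by 22 bases on the other strand, and it overlaps the noncoding gene Gm15419 by 43. These neighbouring collagen IV genes are known to be expressed together, but Col4a1 was listed at 0 and could not be set beside it.

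Col15a1, a basement membrane proteoglycan collagen of muscle and capillaries with the opposite-strand gene Gm12426, held 10, 8, 8 and 14 counts in NTG, dC10mut, control and tt, all within counting error. Col4a4 went from 5 counts in NTG to 0 in dC10mut, and from 2 in control to 2 in tt, and the call of a lower level in dC10mut rests on those 5 counts. Col4a3, its partner in the kidney-type collagen IV network (opposite-strand gene C430014B12Rik), held 1, 2, 2 and 2. Col18a1, the endostatin precursor, has 2 records and was listed at 0. Without Col4a2 the basement membrane collagens held 17, 10, 14 and 19 counts, with a log2 ratio of -0.95 (-2.28 to 0.22) in the HCM pair and 0.35 (-0.71 to 1.47) in the DCM pair.

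**Figure D3:**
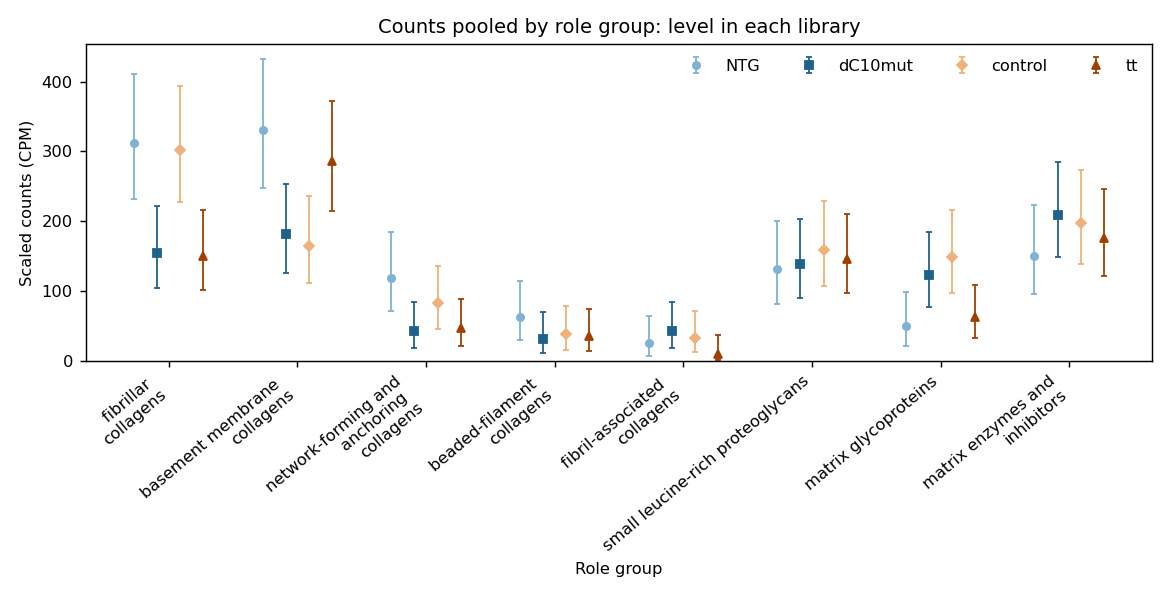
Scaled counts (CPM, vertical axis) pooled by role group in each of the 4 libraries; bars are exact 95% Poisson intervals. Fibrillar collagens are at 312 and 302 CPM in NTG and control and at 155 and 151 CPM in dC10mut and tt, whereas basement membrane collagens are high in NTG and tt and matrix glycoproteins are low there.

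The matrix glycoproteins also differed in opposite directions, and here NTG and tt were the low libraries. Their pooled counts went from 8 in NTG to 23 in dC10mut, and from 27 in control to 12 in tt. The log2 ratio was 1.25 (0.09 to 2.67) in the HCM pair and -1.22 (-2.37 to -0.22) in the DCM pair, with 1.52 (0.40 to 2.92) between the control libraries. Fstl1, a secreted follistatin-like protein made by heart fibroblasts (chromosome 16, 37776873 to 37836514), supplied 72.9% of these counts. It went from 5 counts in NTG to 18 in dC10mut, and from 18 in control to 10 in tt, so that NTG stood below the other libraries. It was 2.91-fold higher in dC10mut than in NTG (log2 ratio 1.54, 0.14 to 3.41) and 2.99-fold higher in control than in NTG (1.58, 0.18 to 3.45). In the DCM pair its interval spanned equality (-0.90, -2.21 to 0.26). Without Fstl1 the glycoproteins held 3, 5, 9 and 2 counts, and the interval spanned equality in each comparison. Fbn1, the main microfibril protein fibrillin (opposite-strand gene Gm9913, with 2442 bases of exon overlap), held 2, 4, 9 and 2 counts in NTG, dC10mut, control and tt. It was 3.99-fold lower in tt than in control, with an interval of the log2 ratio that just spanned equality (-5.50 to 0.02). Thbs4, a thrombospondin induced in stressed heart, held 1 count in NTG and 1 in dC10mut and 0 in the DCM pair.

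Counts of fibroblast and macrophage markers had the same high and low libraries as the glycoproteins. The fibroblast list (6 of 9 genes with a count) summed to 21 in NTG and 50 in dC10mut, and to 40 in control and 29 in tt. Of its defining genes, Pdgfra held at most 2 counts and Tcf21 at most 1 per library, and Mfap5, Lamc3 and Islr were at 0. Dpt, or dermatopontin, held 14, 38, 19 and 18 counts and was called higher in dC10mut (log2 ratio 1.19, 0.30 to 2.22). The activated fibroblast list (5 of 6 genes) summed to 10, 28, 34 and 24, of which Acta2, a smooth muscle actin that mural cells also make, held 6, 24, 24 and 17. Dpt gave 63.6% of the fibroblast list's counts. Without Dpt the fibroblast list held 7, 12, 21 and 11, and its intervals spanned equality within both pairs. Its log2 ratios were then 0.53 (-0.91 to 2.14) in the HCM pair and -0.98 (-2.21 to 0.10) in the DCM pair. Macrophage markers (6 of 8 genes, with Adgre1 and Cd14 at 0) summed to 18, 48, 46 and 18, of which Lyz2, or lysozyme, gave 51.5% (6, 28, 28 and 5). Without Lyz2 they held 12, 20, 18 and 13, with log2 ratios of 0.50 (-0.59 to 1.68) and -0.53 (-1.70 to 0.56) in the HCM and DCM pairs. Their part in the glycoprotein counts was not tested. In the HCM pair counts of the whole fibroblast list went up, and those of the fibrillar collagens, which fibroblasts also make, went down. In the DCM pair both went down, and the part of fibroblasts in the fibrillar collagen counts was not tested.

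Of the small leucine-rich proteoglycans, which bind fibrils and set their spacing, none differed beyond counting error. The group held 21, 26, 29 and 28 counts in NTG, dC10mut, control and tt, with log2 ratios of 0.08 (-0.80 to 0.99) in the HCM pair and -0.13 (-0.94 to 0.67) in the DCM pair. Bgn, or biglycan, on the X chromosome, held 9, 11, 13 and 15 counts, and Lum, or lumican, held 11, 13, 12 and 10. Dcn, or decorin, held 1, 2, 4 and 3. The group's intervals allow differences of nearly 2-fold in either direction.

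The matrix enzymes and inhibitors held 24, 39, 36 and 34 counts in the same order of libraries. Timp3, the matrix-bound inhibitor of metalloproteinases (chromosome 10, 86300372 to 86349506), held 21, 33, 29 and 24, and differed within counting error in the HCM pair (log2 ratio 0.42, -0.40 to 1.29) and the DCM pair (-0.35, -1.20 to 0.48). On the other strand, exons of the synapsin gene Syn3 overlap it by 1733 bases. Syn3, known mainly from neurons, held 24, 19, 22 and 24 counts. Mmp2, the gelatinase that Timp3 can inhibit, held 3, 6, 7 and 10 counts, the lowest in NTG and the highest in tt, with intervals spanning equality in each pair.

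The fibril-associated and membrane-spanning collagens were nearly uncounted. Col14a1, which decorates fibrils, went from 1 count in NTG to 6 in dC10mut, and from 1 in control to 0 in tt. Col16a1 held 2, 0, 2 and 1, Col20a1 1, 2, 1 and 0, and Col23a1, a transmembrane collagen, 2 counts in tt alone. Col9a2, Col9a3 and, of the basement membrane chains, Col4a6 held at most 2 counts per library. Their differences were not detectable at this depth.

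**Figure D4:**
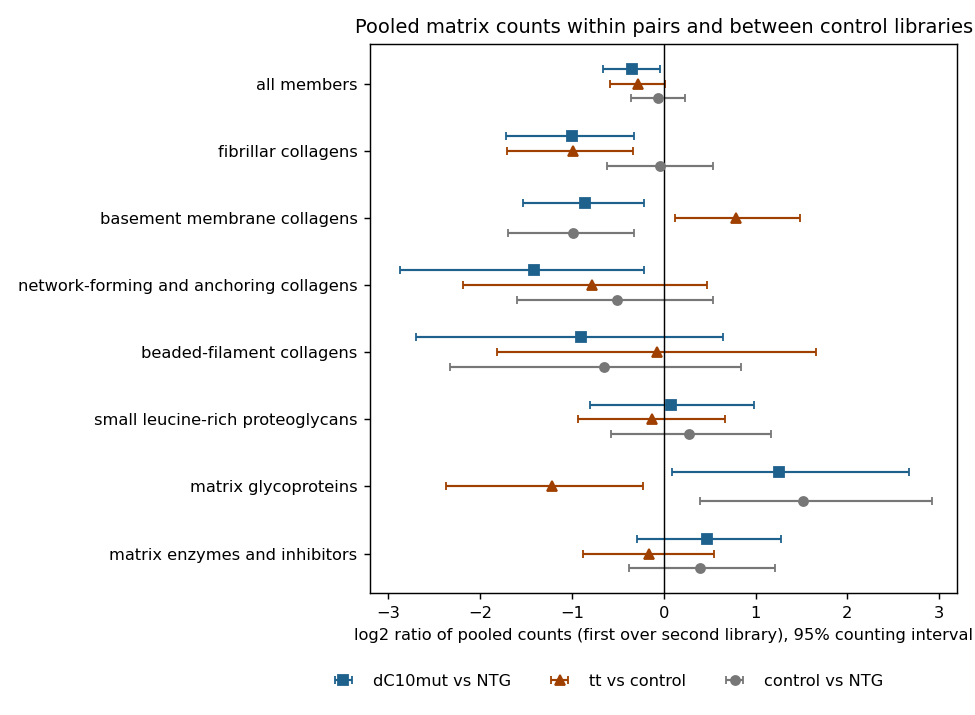
Log2 ratios of pooled counts (horizontal axis) for the whole set and 7 role groups in the HCM pair (squares), the DCM pair (triangles) and between the control libraries (circles); bars are exact 95% binomial intervals for counting error. Fibrillar collagens lie close to -1 in both pairs and at -0.04 between controls, while basement membrane collagens (-0.99) and glycoproteins (1.52) differ between the controls as much as within a pair.

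No wider matrix list was lower by a log2 ratio of 1 in both pairs. Laminins and basement membrane linkers, the partners of collagen IV, held 201, 168, 212 and 179 counts over 12 of 14 genes in NTG, dC10mut, control and tt. Their log2 ratio was -0.48 (-0.79 to -0.18) in the HCM pair, -0.33 (-0.62 to -0.03) in the DCM pair and -0.10 (-0.39 to 0.18) between the controls. The laminin chains Lamb1 (42, 55, 63 and 47 counts) and Lamb2 (50, 39, 48 and 40) were the most counted. Hspg2, or perlecan, was called lower in dC10mut (33 and 18 counts, log2 ratio -1.08, -2.01 to -0.23), and Nid1, or nidogen, lower in tt (13 and 4, -1.66, -3.86 to -0.09; opposite-strand gene Gm48682). No other gene of this list was called in either pair.

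Genes of collagen synthesis, processing and crosslinking held 377, 373, 375 and 345 counts, of which Loxl3, a lysyl oxidase relative, gave 71.1%. Without Loxl3 they held 100, 115, 104 and 106, and the log2 ratios were -0.02 (-0.42 to 0.38) and -0.05 (-0.46 to 0.35) in the HCM and DCM pairs. P4hb, a subunit of the collagen prolyl hydroxylase, held 33, 38, 23 and 29 counts, and Tgm2, a crosslinking transglutaminase, 22, 25, 19 and 21 (opposite-strand genes Gm20412 and Rprd1b). Plod3, a collagen lysyl hydroxylase (opposite-strand gene Znhit1), was called lower in tt (15 and 4 counts, log2 ratio -1.86, -4.04 to -0.34). Loxl3 lies opposite Htra2, and the elastic fibre list rested on Ltbp3, a latent TGF-β binding protein, which held 365 of its 396 counts. That list was lower in dC10mut than in NTG (log2 ratio -0.64, -1.07 to -0.21) and in tt than in control (-0.60, -1.02 to -0.19), with -0.01 (-0.39 to 0.38) between the controls. Ltbp3 itself held 102, 72, 115 and 76 counts, with log2 ratios of -0.72 (-1.18 to -0.28) and -0.68 (-1.12 to -0.25) in the pairs, which is the same order of libraries as in the fibrillar collagens and under 2-fold. Without Ltbp3 the list held 6, 9, 7 and 9 counts, and its intervals spanned equality. The fibulin Fbln1 (2, 0, 2 and 5) was the next most counted, followed by Fbn2, another fibrillin (1, 1, 0 and 2, opposite-strand gene Gm26507), and Emilin1 (0, 2, 2 and 0), which tied. Ppib, a collagen-folding isomerase, held 54 counts in all, while Snx22 on its other strand held 4517. Tsix likewise held more counts than its antisense partner Xist in dC10mut and tt. Whether the counting used strand, and which one, is not given in the sources used here. A setting opposite to that of the stranded kit was not tested, and it would place the counts of every gene in doubt. Counts of genes with an exon opposite another gene are uncertain for this reason too. Of the 57 members, 14 have such an exon, and they hold 302 of the 745 counts. Without them the log2 ratio of the set was -0.41 (-0.82 to -0.01) in the HCM pair and -0.62 (-1.01 to -0.23) in the DCM pair. Of the 5 members that were lower in both mutant libraries (Col1a1, Col1a2, Col3a1, Col6a1 and Col8a1), none has such an exon. Their counts still depend on the unknown strand setting.

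Proteases and inhibitors outside the set held 34, 18, 28 and 24 counts, lower in dC10mut (log2 ratio -1.12, -2.05 to -0.28), with Timp2 (7, 4, 11 and 11), Adamts1 (6, 7, 6 and 4) and Adamts5 (7, 4, 4 and 4) the most counted and 0 genes called in either pair. Among matricellular proteins, Ccn2 (19, 33, 24 and 32, opposite-strand gene Gm15270), a connective tissue growth factor, and Ogn (19, 27, 33 and 27), or osteoglycin, differed within counting error, and Ccn1 was called lower in tt (13 and 2 counts, log2 ratio -2.51, -5.97 to -0.64). Matrix receptors held 60, 81, 66 and 84 counts, mostly of Itgb1, the common integrin β1 chain (46, 62, 42 and 72). Itgb1 was higher in tt than in control by under 2-fold (log2 ratio 0.69, 0.13 to 1.28). In the HCM pair its interval spanned equality (0.21, -0.37 to 0.79). The collagen receptors Itga1 (5, 7, 7 and 3) and Ddr2 (6, 5, 5 and 3, opposite-strand gene 3110045C21Rik) followed, and the list's intervals spanned equality in both pairs (0.21, -0.29 to 0.72, and 0.26, -0.22 to 0.75). Genes listed under TGF-β signalling, a pathway that can drive collagen synthesis, held 29, 31, 25 and 30 counts with 0 called. The BMP receptor Bmpr2 (12, 14, 10 and 17) gave 46.1% of them. The ligand Tgfb1 (6, 6, 1 and 1) and the coreceptor Tgfbr3 (4, 1, 6 and 3) followed. The list's log2 ratios were -0.13 (-0.91 to 0.65) and 0.18 (-0.63 to 1.01).

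Endothelial markers (4 of 8 genes, with Pecam1, Tek, Egfl7 and Emcn at 0) summed to 223, 229, 262 and 133 counts in NTG, dC10mut, control and tt and were lower in tt (log2 ratio -1.06, -1.37 to -0.75). Fabp4, a fatty acid binding protein, gave 75.9% of them. Without Fabp4 they held 69, 45, 59 and 31 counts and were lower in both mutant libraries, with log2 ratios of -0.83 (-1.42 to -0.28) and -0.999 (-1.69 to -0.36), in the same order as the fibrillar collagens and Col8a1. Col4a2, which capillaries also make, was lower in dC10mut than in NTG (24 against 36 counts) and higher in tt than in control (36 against 16). Pericyte and smooth muscle markers (4 of 8 genes) summed to 130, 163, 158 and 137, of which Rgs5 gave 62.2% (65, 120, 95 and 86). In this list Notch3 (opposite-strand gene Gm17276) was called lower in dC10mut (34 and 11 counts, log2 ratio -1.80, -2.98 to -0.84). Epicardial and lymphocyte markers held at most 1 count per library, and adipocyte, cartilage, Schwann cell and red cell markers were at 0. Among genes with a single record and 10 or more counts in the pair, those of 4000 bp or more had a median log2 ratio of -0.07 in dC10mut over NTG and 0.09 in tt over control, against 0.04 and -0.08 for shorter ones. The part of marker cells and of length in the collagen counts was not tested.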

How the data were processed

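Per the labels' protocols, poly(A) RNA of whole hearts was sequenced with a stranded library kit. The submitters' processing notes name STAR, HTSeq and mm10, with no versions, and neither the counting mode nor the strand setting is given in the sources used here. What the authors deposited are unnormalized read counts for each RefSeq transcript. Of 41449 transcripts, 41252 matched a symbol in the RefSeq GRCm38.p6 table, and counts were summed per symbol. The GENCODE M21 annotation (GRCm38) gave positions, transcript lengths and opposite-strand exons, for all 57 members.

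Libraries were scaled with TMM factors over all genes (edgeR 4.0.16; 0.940, 0.999, 1.03 and 1.03 for NTG, dC10mut, control and tt). Before each log2 ratio, pooled ones included, 0.5 of a count in proportion to library size was added. Their 95% intervals were exact Clopper-Pearson conditional binomial intervals, and intervals of single counts were exact Poisson. PCR copies are not independent molecules, so both cover counting error only. Differences between pairs used a normal approximation. The ratio rule was tried on simulated Poisson counts, with known changes set only in better counted genes. That simulation shares the counting-error model of the intervals. It therefore cannot speak to variation between hearts or to changes in sparsely counted members. Genes with 10 or more counts in all, or called in a comparison, were named, as were the 3 most counted of each wider matrix list and its called genes with 10 or more counts in a library. The members and lists were chosen with earlier results of these data known. The opposite-strand gene of 1 gene named in the report is not reported here. The alternatives were DESeq2 1.42.0 size factors, library totals, a prior count of 2, a minimum of 10 counts, and other choices of members.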

Additional observations from a re-analysis of the deposited data

Results flagged for a closer look

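Some results had opposite directions in the HCM and DCM pairs, each of which has 1 library per group. The difference between the pairs was not tested against replicates, and the intervals below cover counting error only. The log2 ratio of Col4a2 was higher in the DCM pair by 1.86 (0.74 to 2.98), and that of the basement membrane collagens by 1.64 (0.75 to 2.52). For Fstl1 the DCM pair minus the HCM pair was -2.44 (-4.19 to -0.68), and for the matrix glycoproteins it was -2.47 (-3.96 to -0.98). For the 13 members that are not collagens it was -0.90 (-1.56 to -0.24). Their counts went from 53 in NTG to 88 in dC10mut, and from 92 in control to 74 in tt. In each of these the control libraries also differed, by log2 ratios of -1.32 for Col4a2, -0.99 for basement membrane collagens, 1.58 for Fstl1, 1.52 for glycoproteins and 0.61 for the members that are not collagens. The fibrillar collagens had a difference between the pairs of 0.00 (-0.92 to 0.92).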

How the results depend on the processing

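Of 242 recomputed values, 236 were unchanged by the rule for their kind, and none of the 242 reversed a called direction. Set and group ratios had to stay within the counting interval of the reported value, and counts of genes within 1.5 times. Ratios of single members only had to keep their call, or lack of one. With collagens alone, the set's log2 ratio was -0.90 for dC10mut over NTG and -0.45 between the controls. Without members opposite another gene it was -0.62 in the DCM pair, and the called members numbered 1 in the DCM pair and 1 between the controls, since Col4a2 is among those left out. The median over members with 10 or more counts was 0.28 between the controls, against -0.06 for pooled counts; library totals in place of TMM gave 0.07 there. Totals moved the scaling itself by 0.09 in the HCM pair and 0.13 between the controls, and ratios of low counts by less. The cause of the other shifts was not tested. Restricting the set to members with 1 transcript record, comparing role groups under other scalings, and leaving out the most counted gene of a group or list, were chosen after seeing the data. No paired analysis was possible because each group has 1 library, and no library could be left out for the same reason. Depth, single libraries, the unknown strand setting and genes with several transcript records all limit the values: most members hold under 10 counts.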
